A study of Mus musculus with 4 samples.

Results

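The matrilin family was followed in single cells of the embryonic mouse hindlimb. Its 4 genes, *Matn1*, *Matn2*, *Matn3* and *Matn4*, were taken by symbol from the 32288 features of the count matrices, and all 4 were found. Hindlimbs (femur and tibia with surrounding tissue) were collected at E14.5 (embryonic day), and their cells were sorted by tdTomato fluorescence and measured as unique molecular identifiers (UMIs) by 3′-end droplet sequencing. Libraries S1 (tdT+) and S2 (tdT-) came from a first collection, and S3 (tdT+) and S4 (tdT-) from a second. Each library mixed *Pan-Cart-p21MOE* cells (p21 cells hereafter) with control cells.

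p21 embryos carried *Gli1CreER*, *Col2a1-rtTA*, *TigreTRE-p21* and *R26LSL-tdT*. Their cell cycle inhibitor transgene is driven by doxycycline through rtTA, which the *Col2a1* promoter restricts to cartilage, and it is mosaic. Controls lacked *Col2a1-rtTA* and carried the other alleles. All dams received doxycycline (1 mg/ml in the drinking water, with doxycycline food) from E12.5 and tamoxifen (120 µg/g) at E13.5, so that tdT marked *Gli1*-lineage cells in both conditions. The condition of a cell was read from its sex: p21 cells were male and control cells female in S1 and S2, and the sexes were swapped in S3 and S4. Sex and condition cannot be told apart within a library, only across the 2 collections. The labels name no condition for single cells, and the pairing of sex with condition is that of the study's methods. Each condition had 4 pseudobulks (the summed UMIs of its cells in each library), tdT+ and tdT- from each of 2 collections, so the p-values treat cells of the same embryos as separate samples. The methods list only 1 experimental female, by which both p21 pseudobulks of the second collection (S3 and S4) come from 1 embryo, although the study elsewhere describes embryos pooled per sample.

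Matrilins are secreted, oligomeric adaptor proteins of the extracellular matrix, built from von Willebrand factor A domains, epidermal growth factor-like domains and a coiled coil. Matrilin 1 and matrilin 3 are known from cartilage, where they bind aggrecan and collagen fibrils and can assemble together. Matrilin 2 and matrilin 4 are found in a wider range of connective tissues. Variants of human *MATN3* cause a form of multiple epiphyseal dysplasia.

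In the GRCm38 annotation the genes lay on 4 chromosomes. *Matn1* spanned chr4:130944385-130955475 (plus strand), with 8 exons and 1500 coding bases in its longest coding transcript. *Matn2* spanned chr15:34306677-34436273 (plus strand), with 19 exons and 2871 coding bases. *Matn3* spanned chr12:8947929-8972028 (plus strand), with 8 exons and 1443 coding bases. *Matn4* spanned chr2:164389393-164405160 (minus strand), with 11 exons and 1872 coding bases. *Matn2* overlapped *9430069I07Rik* and *Matn4* overlapped *Rbpjl*, each on the opposite strand, and reads of such pairs can be told apart only if the counting used strand, which is not given in the sources used here.

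The 250 bases before the starts of *Matn1* and *Matn3* are shown because these genes had the most similar levels over cell clusters of any member pair. The sequences are from RefSeq (GRCm38.p6), both on the plus strand, at chr4:130944135-130944384 and chr12:8947679-8947928. Capitals mark the GC box GGGCGG or its reverse complement.
Matn1: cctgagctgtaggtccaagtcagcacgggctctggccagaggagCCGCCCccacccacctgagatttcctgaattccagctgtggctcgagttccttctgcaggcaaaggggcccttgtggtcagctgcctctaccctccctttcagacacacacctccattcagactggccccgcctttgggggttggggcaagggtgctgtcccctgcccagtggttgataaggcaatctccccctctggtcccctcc
Matn3: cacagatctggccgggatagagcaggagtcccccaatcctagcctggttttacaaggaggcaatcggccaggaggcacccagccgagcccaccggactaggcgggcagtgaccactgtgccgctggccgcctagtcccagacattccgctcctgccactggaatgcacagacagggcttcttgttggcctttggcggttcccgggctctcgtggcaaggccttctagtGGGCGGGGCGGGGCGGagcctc
The *Matn3* window held 3 overlapping GC boxes beginning 22, 17 and 12 bases before the start, and the *Matn1* window held 1, on the reverse strand, 206 bases before it. Of the 2 *Matn4* starts, 1 had a GC box, also on the reverse strand. A GC box was present in 32.7% of 32851 mouse promoter windows of this length. The SOX core motifs ACAAAG (16.5% of windows) and ACAATG (10.7%) and the TATA box TATAAA (12.4%), searched on both strands, had no match in the windows of *Matn1*, *Matn3* and *Matn4*, which says only that these letters are not in these windows. *Matn2* was not matched.

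After filtering, 2729 cells were kept (1754 p21 and 975 control) in 22 clusters, and 963 of them fell into 6 chondrocyte-like clusters (564 p21 and 399 control). Chondrocyte pseudobulks held 910026 to 7853364 UMIs. S2 was the shallowest for p21 cells, with 41 chondrocytes, 9 of them proliferative. S4 stood apart in having 2827 filtered barcodes with no sex call, against 208 to 495 in the other libraries. In addition, 5 clusters came at 90% or more from 1 library and stayed unnamed. These 5 held 81, 36, 17, 17 and 12 p21 cells and 1, 0, 0, 0 and 0 control cells. They lay outside the chondrocyte class of the main fits. Among kept cells, 1 barcode was shared by S1 and S3 and 1 by S1 and S4. The woodchuck element WPRE, present in the p21 transgene and in the tdT reporter, was the check of the labels: in chondrocytes of the tdT- libraries it stood at 972 and 1284 CPM (UMIs scaled to the total of the pseudobulk) in p21 cells and at 120 and 69.2 CPM in control cells. *Cdkn1a*, the endogenous p21 gene, did not separate the conditions in the chondrocyte class (53.6 to 61.5 CPM in p21 against 21.6 to 90.9 CPM in control cells). An unnamed cluster led by *Cdkn1a*, with 36 p21 and 0 control cells and 35 cells from S4, lay outside that class. Per the study, 3′ reads of the p21 transgene fall mostly on WPRE, so the *Cdkn1a* level does not check the labels.

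*Matn1* and *Matn3* were cartilage genes with higher levels in the later zones than in the resting zone, *Matn4* was high in resting and proliferative chondrocytes and lower in hypertrophic ones, and *Matn2* was low in cartilage and highest in perichondrium. Classes were named from markers, and "chondrocyte" or "tenocyte" below stands for cells like that type. The levels are CPM of summed UMIs per library, with p21 and control cells pooled, for libraries with at least 20 cells of a class. Cells were clustered without the matrilins and their matrix partners. Correlated genes remained in the clustering, so the levels are descriptions with no test. UMIs of 3′ tags were compared within a gene and not between genes.

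*Matn1*, which encodes cartilage matrix protein, stood in proliferative chondrocytes at 2045, 2324, 1921 and 2219 CPM in S1 to S4 (mean 2127 ± 179, SD, n = 4). The prehypertrophic or hypertrophic cluster had 1962 CPM in S2 and 1663 CPM in S4 (1812 ± 212, n = 2), and the mean ± SD ranges of these classes overlapped. That cluster (96 cells) was led by *Col10a1*, *Spp1* and *Ihh*, and endothelial markers were detected in it too: *Cdh5* had a UMI in 14.6% of its cells and *Emcn* in 22.9%, against 0.807% and 2.54% of other chondrocytes. The part of such cells in its levels was not tested. Resting chondrocytes were lower in every library, at 894, 1076, 729 and 884 CPM (896 ± 142, n = 4). Interzone or articular-like cells had 192 ± 134 CPM (n = 3). Perichondrium-like cells (101 ± 55.8, n = 4), tenocytes (73.3 ± 55.3, n = 3) and mesenchyme (66.8 ± 69.0, n = 4) followed, and neighbours from the interzone downwards did not differ beyond their spread.

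With p21 and control cells pooled, *Matn3* was highest in the prehypertrophic or hypertrophic cluster, where *Matn1* was not above proliferative chondrocytes. It stood there at 365 and 330 CPM (348 ± 25.3, n = 2). Proliferative chondrocytes had 243, 306, 196 and 249 CPM (249 ± 45.2, n = 4), and resting chondrocytes 68.3, 106, 68.4 and 62.1 CPM (76.3 ± 20.2, n = 4). The mean ± SD ranges of these 3 zones did not overlap. Control cells of the prehypertrophic or hypertrophic cluster were above proliferative ones in S2 (481 against 327 CPM) and S4 (617 against 432 CPM). For p21 cells this held in S2 (218 against 178 CPM) but not in S4 (163 against 177 CPM). Interzone cells had 28.0 ± 5.66 CPM (n = 3), and perichondrium-like cells, tenocytes and mesenchyme had means of 5.34 to 15.9 CPM.

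*Matn4*, a matrilin of many connective tissues, stood in resting chondrocytes at 1444, 1510, 1297 and 1467 CPM (1429 ± 92.3, n = 4) and in proliferative chondrocytes at 1293, 1603, 1213 and 1079 CPM (1297 ± 222, n = 4). These zones did not differ beyond their spread. The prehypertrophic or hypertrophic cluster was lower, with 599 and 534 CPM (566 ± 46.4, n = 2). Interzone cells had 381 ± 82.4 CPM (n = 3), and perichondrium, mesenchyme and tenocytes had means of 229 to 244 CPM with overlapping ranges. Within mesenchyme, a cluster of 92 cells led by *Otor* and *Pax1* had 892 CPM in S3 and 433 CPM in S4, with 23.8 and 48.3 CPM of *Matn1*. Unnamed clusters without 3 detected chondrocyte markers, led by *Crabp1* and by *Isl1*, had 621 and 554 CPM of *Matn4* over all their cells. Of the unnamed clusters with such markers, that led by *Itgam* and *Pecam1* (147 cells) had 1163 CPM of *Matn4* and 564 CPM of *Matn1*, and 4 small clusters mostly of 1 library had 271 to 891 CPM of *Matn4* and 472 to 2020 CPM of *Matn1*.

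*Matn2* went the other way. Perichondrium or groove of Ranvier-like cells, a cluster also led by *Alpl* and *Runx2*, had 51.7, 55.8, 64.0 and 74.5 CPM (61.5 ± 10.1, n = 4), above every other class with at least 2 libraries. Osteoprogenitors, measured in S3 only, had 44.7 CPM. The prehypertrophic or hypertrophic cluster (24.5 ± 7.68, n = 2), mesenchyme (20.6 ± 11.1, n = 4), proliferative chondrocytes (17.5 ± 4.93, n = 4) and tenocytes (16.2 ± 6.06, n = 3) had overlapping ranges. Interzone cells (8.65 ± 1.26, n = 3) and resting chondrocytes (8.59 ± 1.74, n = 4) were lowest.

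**Figure D1:**
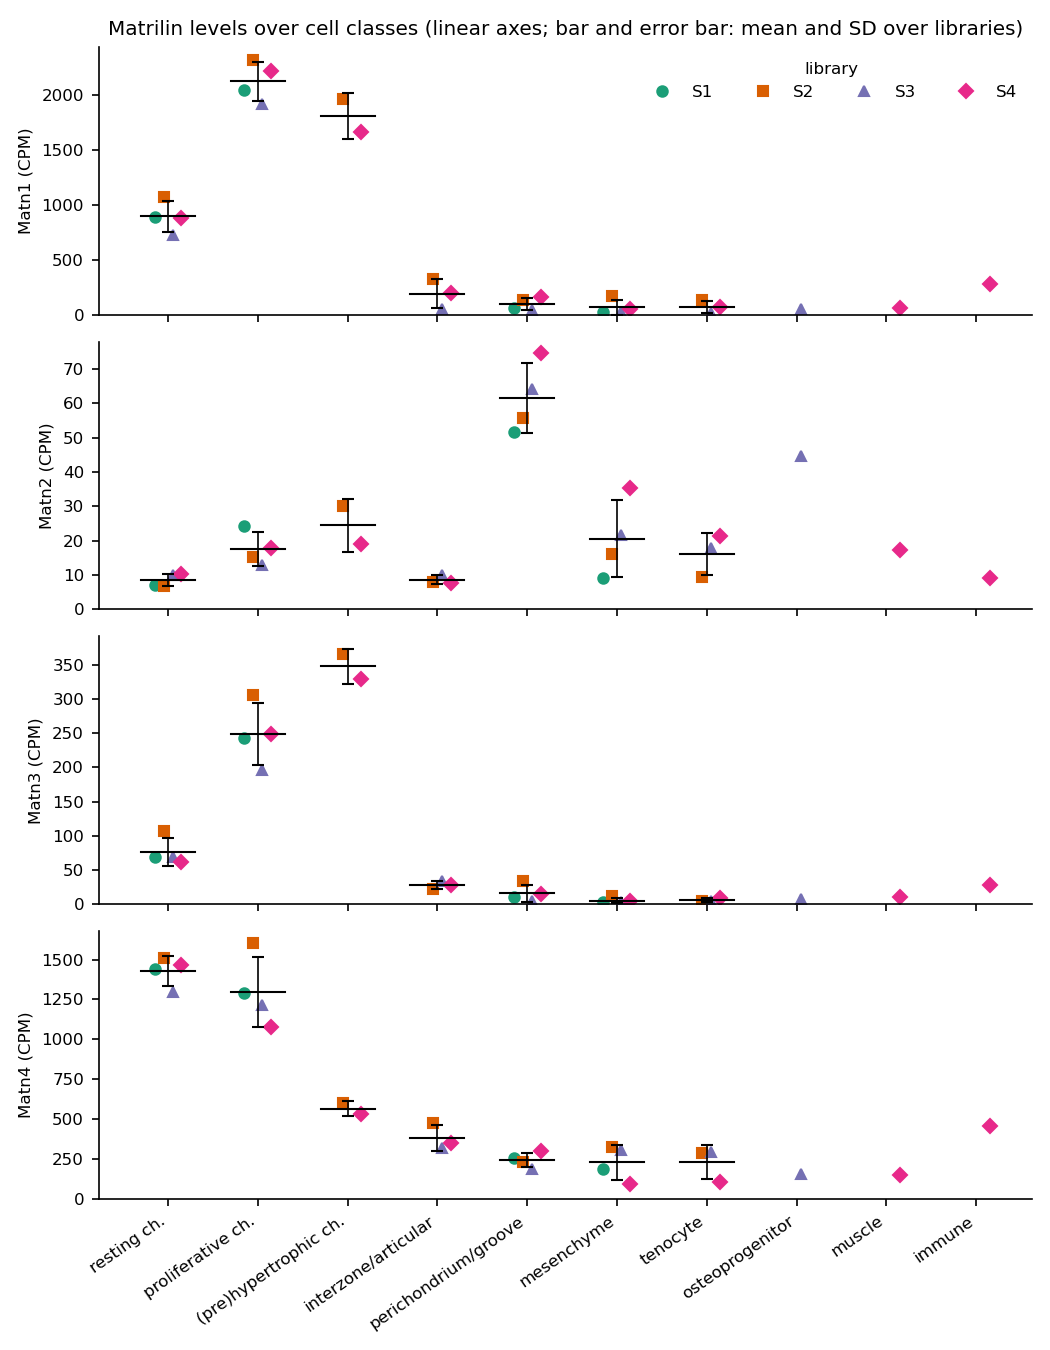
CPM of each matrilin (y axis, linear, from 0) in 10 cell classes (x axis). Each symbol is 1 library (S1 to S4), and bars with error bars give the mean and SD over libraries where at least 2 had 20 cells. *Matn1* and *Matn3* are high in the chondrocyte zones, *Matn4* stands at 1429 CPM in resting and 566 CPM in prehypertrophic or hypertrophic cells, and *Matn2* is highest in perichondrium at 61.5 CPM.

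Clusters within a zone were not alike. The resting-like cluster led by *Hes5*, *Cytl1* and *Gdf10* had 1249 CPM of *Matn1* and 1736 CPM of *Matn4* over all its cells. The resting-like cluster led by *Bmp5* and *Sox9* had 470 CPM of *Matn1* with 1490 CPM of *Matn4*, and the resting-like cluster with the mitotic genes *Cenpa* and *Ube2c* had 616 and 784 CPM. The cluster with mitotic genes was named from 4 of 7 resting markers. In it 0 of 8 general chondrocyte markers counted as detected, which required a level 1.5-fold above the other cells. Of the proliferative-like clusters, that led by *Epyc* and *C1qtnf3* had 2643 CPM of *Matn1* and 294 CPM of *Matn3*. The proliferative-like cluster led by *Itpr2* and *Sorbs2os* had 1470 and 173 CPM. *Matn4* differed less between these clusters, at 1133 and 1297 CPM.

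Summed over all chondrocytes and set against all other kept cells, *Matn1* was higher by 3.27 ± 0.36 on the log2 scale (SD, n = 4 libraries), *Matn3* by 2.93 ± 0.35 and *Matn4* by 1.68 ± 0.12, each in 4 of 4 libraries. *Matn2* was lower in chondrocytes in 4 of 4 libraries, with a log2 ratio of −0.81 ± 0.25. The other cells included those 5 unnamed clusters with chondrocyte markers. Without them the ratios were 3.97 ± 0.55, 3.78 ± 0.24, 2.08 ± 0.18 and −0.86 ± 0.26 for *Matn1*, *Matn3*, *Matn4* and *Matn2*.

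Muscle-like and immune-like cells, which should hold little matrilin RNA, served as a yardstick for low levels. Muscle-like cells, mostly from S4, had 66.9 CPM of *Matn1*, 16.7 CPM of *Matn2*, 6.08 CPM of *Matn3* and 122 CPM of *Matn4*. Immune-like cells, also mostly from S4, had 212, 11.8, 20.95 and 348 CPM. The means of *Matn1*, *Matn3* and *Matn4* in perichondrium, mesenchyme and tenocytes, and of *Matn1* in the interzone, lay below the immune values. In S2, however, the 7 muscle and immune cells had 26.7 CPM of *Matn1* and 2.97 CPM of *Matn3*, below the 323 CPM of *Matn1* in interzone cells, 169 CPM in mesenchyme and 132 CPM in perichondrium of that library, and below the 33.5 CPM of *Matn3* in perichondrium. The yardstick thus rests on few cells of mainly 1 library, and whether such UMIs came from free RNA was not tested. *Matn1* had 24.6 UMIs per 100 UMIs of *Col2a1*, the main collagen of cartilage, in chondrocytes, 18.8 in muscle and 15.3 in immune cells, and 33.7 to 65.7 in barcodes under 1000 UMIs of the 4 libraries. *Matn4* had 18.2 per 100 in chondrocytes, against 47.9 in perichondrium and 79.9 in mesenchyme, compared with 34.1 in muscle and 25.2 in immune cells. For *Matn2* the ratio was 12.3 in perichondrium, 4.69 in muscle, 0.851 in immune cells and 0.228 in chondrocytes.

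Over 19 clusters, the levels of *Matn1* and *Matn3* were the most alike of any member pair, and each was the nearest of 6251 genes to the other (Pearson r = 0.98 on log2(CPM + 1), a description over clusters that share libraries and depth). *Matn1* was next nearest to *Col9a2* (0.94) and *Col9a3* (0.94), chains of the collagen on the surface of cartilage fibrils. *Matn3* was next nearest to *Ugdh* (0.97), which makes the sugar precursor of glycosaminoglycans, and *Hapln1* (0.96), the link protein that holds aggrecan to hyaluronan. *Matn4* was nearest to *Rflna* (0.93), *Wwp2* (0.91) and *Cnmd* (0.85), the last of which encodes chondromodulin. *Matn2* was nearest to *Pdzd2* (0.84), *Tspan18* (0.80) and *Colec12* (0.76), with r of −0.49 to −0.16 to the other matrilins.

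In single chondrocytes thinned to 5000 UMIs (877 cells, 86 shallower cells left out), 86.9% had a UMI of *Matn1*, 5.93% of *Matn2*, 39.2% of *Matn3* and 94.8% of *Matn4*. At the same depth muscle-like cells had a UMI of *Matn1* in 39.1%, of *Matn3* in 6.52% and of *Matn4* in 43.5% (46 cells). Immune-like cells had shares of 69.7%, 12.1% and 84.8% for these genes (33 cells). Median depth before thinning was 22808 UMIs in chondrocytes and 15373 in muscle. Of the 344 chondrocytes with a *Matn3* UMI, 94.8% also had one of *Matn1*. *Matn2* was detected in 24.9% of perichondrium-like cells, against 10.9% in muscle and 6.06% in immune cells. *Matn1* was detected in 23.4% of perichondrium-like cells, below the muscle share.

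The comparison of p21 with control cells asks whether blocking part of the chondrocytes in the cell cycle goes with another expression of the family. *Matn3* was lower in p21 chondrocytes, 2.33-fold over all chondrocytes and 2.49-fold in proliferative chondrocytes, and it was the member that passed the test. *Matn4* had lower values in p21 chondrocytes of all 4 libraries, as did 7.78% of all genes tested, by a smaller amount than *Matn3*, and did not pass. *Matn1* had lower values in proliferative chondrocytes of all 4 libraries, as did 7% of genes there, also without passing. *Matn2* showed no detectable difference. The test was edgeR's quasi-likelihood fit with the sorted fraction as covariate, adjusted over all genes tested at a threshold of 0.05. In bulk sums, fewer cells of a type and less RNA per cell cannot be told apart.

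*Matn3* stood in all p21 chondrocytes at 113, 102, 111 and 138 CPM in S1 to S4, and in control chondrocytes at 200, 255, 240 and 410 CPM. Every p21 value was below every control value, as for 2.54% of all genes tested, and the control cells of S4 were the highest. The means were 116 ± 15.4 and 276 ± 92.2 CPM (SD, n = 4). The log2 fold change was −1.22 (SE 0.17, 95% interval −1.59 to −0.85, edgeR adjusted p = 0.0151), 1 of 28 genes called lower among 11971 tested (0.234%), with 0.342% called in either direction. It was lower in 4 of 4 libraries, as were 7.78% of all genes tested. The ratio was lower in both directions of the sex swap, at −0.82 and −1.31 in the libraries with male p21 cells and −1.10 and −1.57 in those with female p21 cells. A two-sided exact permutation test of this gene alone gave p = 0.0286, the smallest that 70 assignments allow. This fall was known from earlier work on these data when the family was chosen. Without the p21 cells of S3 or of S4 the adjusted p was 0.0515 or 0.0614, and with the fractions of a collection summed, 2 sums against 2, it was 0.0662, with log2 fold changes of −1.30 to −1.25.

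In proliferative chondrocytes *Matn3* stood at 144, 178, 136 and 177 CPM in p21 cells (159 ± 22.1, n = 4) and at 312, 327, 452 and 432 CPM in control cells (381 ± 71.5, n = 4). The groups did not overlap, as for 2.32% of genes, and the library of the p21 value at 178 CPM held 40 *Matn3* UMIs in 9 cells. The log2 fold change was −1.32 (SE 0.16, edgeR adjusted p = 0.0138), and 16 of 10156 genes were called lower (0.158%, and 0.295% in either direction). All 4 libraries were lower, as for 7% of genes. Without the p21 cells of S4 it was −1.38 with an adjusted p of 0.0732.

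In resting chondrocytes *Matn3* stood at 52.3, 39.0, 63.4 and 41.2 CPM in p21 cells (49.0 ± 11.3, n = 4) and at 82.7, 137, 77.6 and 138 CPM in control cells (109 ± 32.9, n = 4). The groups did not overlap, as for 2.92% of genes, and the gap was small in S3, at 63.4 against 77.6 CPM. The log2 fold change of −1.07 (SE 0.23) did not pass (edgeR adjusted p = 0.108, with 10 of 9440 genes, 0.106%, called lower and 0.117% in either direction), and 8.54% of genes were lower in 4 of 4 libraries. It passed with DESeq2 (adjusted p = 0.0122), with no filter on low counts (2.25e-05) and with the fractions summed (0.0393). Whether the resting and proliferative changes differ was not tested.

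The prehypertrophic or hypertrophic cluster had at least 5 cells of both conditions in S2 and S4. *Matn3* stood there at 218 and 163 CPM in p21 cells and at 481 and 617 CPM in control cells. With 2 libraries no test was made. Endothelial markers there summed to 68.2 and 702 CPM in p21 cells and 363 and 350 CPM in control cells of S2 and S4. The 68.2 CPM in p21 cells of S2 was all *Pecam1*. In S3 the p21 value was 147 CPM in 12 cells, beside 344 CPM in 2 control cells.

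**Figure D2:**
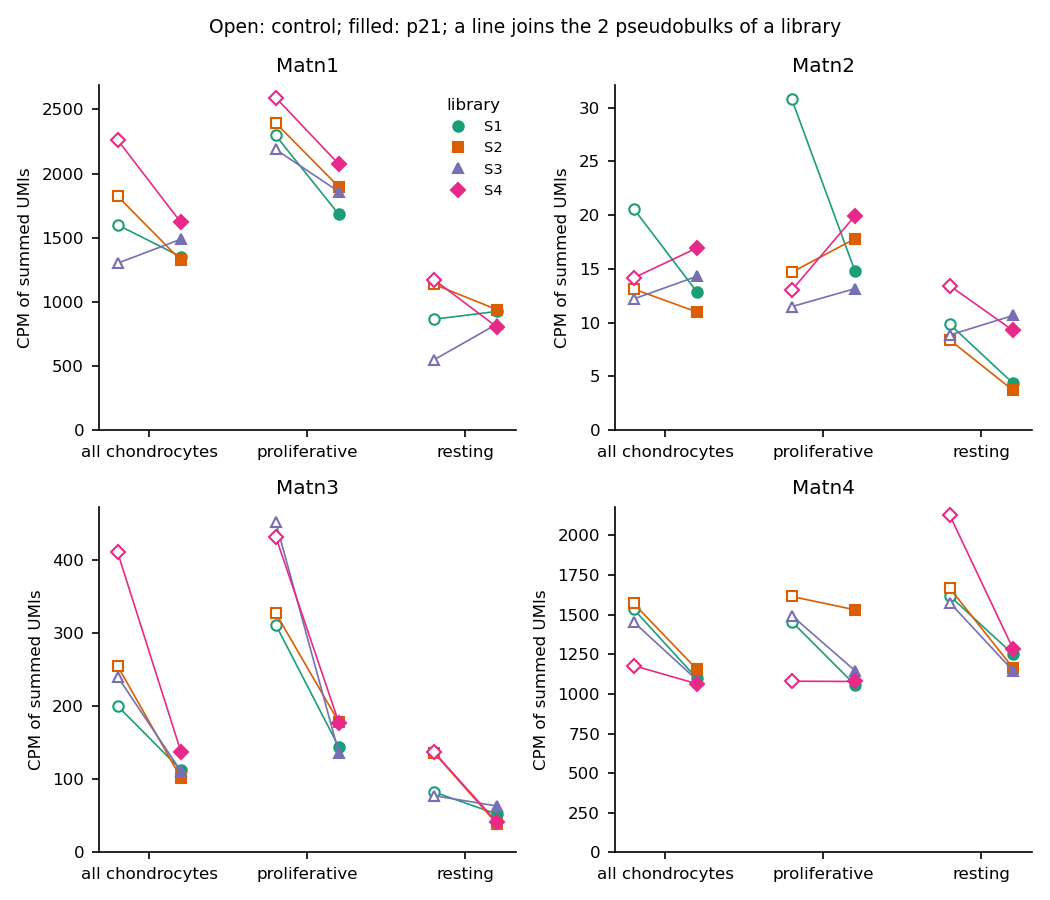
CPM of the 4 matrilins (y axes, linear, from 0) in the control (open) and p21 (filled) pseudobulks of all, proliferative and resting chondrocytes, with a line joining the 2 pseudobulks of a library. The *Matn3* line goes down in every library and every set of cells, and the lines of *Matn2* run both ways.

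The *Matn3* difference was also present inside clusters. Equal weight was given to each cluster with at least 3 cells of both conditions in a library. The log2 ratios of p21 over control were then −1.01, −1.41, −1.16 and −1.53 in S1 to S4. In S2 this took in the cluster led by *Itpr2*, whose 3 p21 cells had 0 UMIs of *Matn3*, against 264 CPM in control cells. In the proliferative-like cluster led by *Epyc* the means were 211 ± 36.8 against 393 ± 66.0 CPM (n = 4, lower in 4 of 4). In that led by *Itpr2* they were 98.1 ± 29.9 against 398 ± 83.4 CPM (n = 3, lower in 3 of 3), and in the resting-like cluster led by *Hes5* 56.6 ± 22.1 against 152 ± 32.0 CPM (n = 4, lower in 4 of 4). The other 2 resting-like clusters were lower in 3 of 4 libraries each, with 46 to 105 UMIs of *Matn3* on each side. The prehypertrophic or hypertrophic cluster made up different shares of the chondrocytes, 40 of 295 p21 and 20 of 93 control cells in S4. Without it the log2 fold change was −1.26 (edgeR adjusted p = 0.0105).

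The share of chondrocytes with a *Matn3* UMI at 5000 UMIs per cell was 25.0% in p21 and 41.9% in control cells of S1 and 25.0% and 52.7% in those of S2. The second collection gave 29.9% and 43.5% in S3 and 33.5% and 64.7% in S4. It was lower in p21 cells in each library, and the exact binomial 95% intervals, which cover counting error only, were apart in S2 (12.7 to 41.2% against 43.8 to 61.5%) and in S4 (27.8 to 39.4% against 53.6 to 74.8%). Over all libraries 30.9% of 525 p21 and 51.7% of 352 control chondrocytes had a UMI, with 39 and 47 shallower cells left out. The unthinned shares were 58.7% and 67.2%. In proliferative chondrocytes the thinned shares were 41.6% and 66.9%, and in resting chondrocytes 16.1% and 34.7%. Muscle-like cells had 6.52% (interval 1.37 to 17.9%) and immune-like cells 12.1% (interval 3.40 to 28.2%). The 16.1% of p21 resting chondrocytes lay within both intervals.

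**Figure D3:**
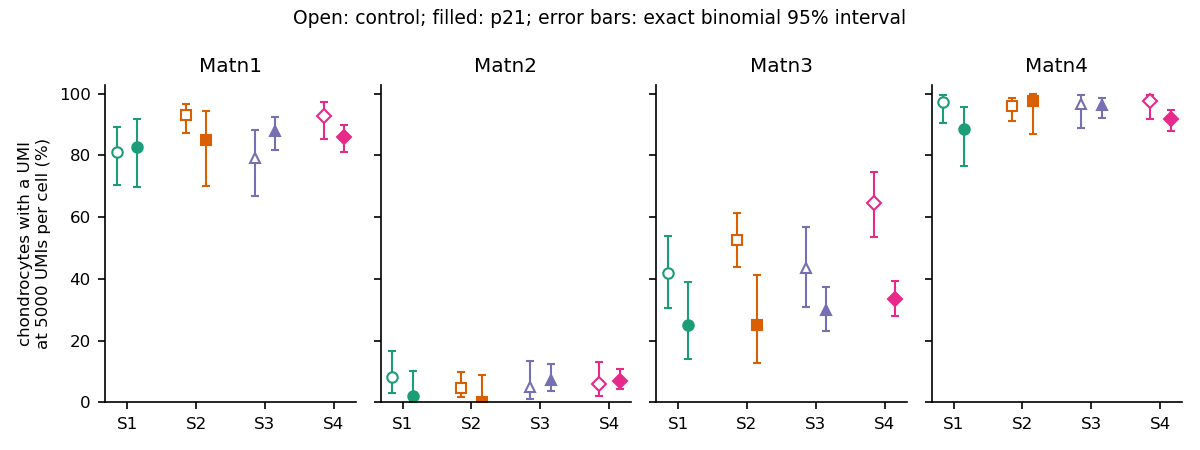
Share of chondrocytes with at least 1 UMI of each matrilin (y axis, percent) at 5000 UMIs per cell in each library (x axis), control open and p21 filled, with exact binomial 95% intervals. For *Matn3* the p21 share is 25.0 to 33.5% and the control share 41.9 to 64.7%, while *Matn1* and *Matn4* are near their ceiling and *Matn2* near the floor.

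*Matn4* stood in p21 chondrocytes at 1098, 1155, 1088 and 1064 CPM and in control chondrocytes at 1535, 1571, 1454 and 1178 CPM. The groups did not overlap, and the control value of S4 lay just above the highest p21 value, 1155 CPM. The means were 1101 ± 38.6 and 1434 ± 178 CPM (n = 4), with a log2 fold change of −0.40 (SE 0.085, edgeR adjusted p = 0.0758), which did not pass. Groups without overlap and lower p21 values were found for 2.54% of all genes tested. It passed in 6 of 25 other settings, among them DESeq2 (0.0117), limma-voom (0.0492) and the fit without the control cells of S4 (0.0228). In resting chondrocytes the p21 values were 1251, 1164, 1146 and 1285 CPM and the control values 1618, 1666, 1575 and 2127 CPM, again without overlap (2.92% of genes), with a log2 fold change of −0.51 (SE 0.11, edgeR adjusted p = 0.119). In proliferative chondrocytes the groups overlapped, at 1057 to 1531 against 1080 to 1615 CPM (−0.28, SE 0.15, edgeR adjusted p = 0.576).

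*Matn1* stood in p21 chondrocytes at 1352, 1324, 1488 and 1619 CPM and in control chondrocytes at 1600, 1824, 1302 and 2262 CPM. The groups overlapped and S3 went the other way, with a log2 fold change of −0.27 (SE 0.13, edgeR adjusted p = 0.487). In proliferative chondrocytes the p21 values were 1681, 1896, 1859 and 2072 CPM and the control values 2297, 2394, 2188 and 2592 CPM. These did not overlap (2.32% of genes) and gave −0.37 (SE 0.082, edgeR adjusted p = 0.0891), which passed with DESeq2 (0.0174) and limma-voom (0.0463) only among the other settings run. In resting chondrocytes the groups overlapped, at 804 to 939 against 547 to 1174 CPM (−0.05, 95% interval −0.40 to 0.31, edgeR adjusted p = 0.956).

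*Matn2* stood in p21 chondrocytes at 12.9, 11.0, 14.3 and 16.9 CPM and in control chondrocytes at 20.6, 13.1, 12.2 and 14.2 CPM, from 10 to 133 UMIs a pseudobulk. The groups overlapped, and the log2 fold change of −0.06 had a 95% interval of −0.54 to 0.42 (edgeR adjusted p = 0.965). A change within that interval was not excluded. In proliferative and resting chondrocytes the intervals were −0.84 to 0.62 and −1.11 to 0.56.

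Outside cartilage the conditions were set side by side with no test, for libraries with at least 5 cells of each condition. In interzone or articular-like cells *Matn1* stood at 17.4, 39.8, 34.5 and 184 CPM in p21 and at 153, 479, 104 and 262 CPM in control cells of S1 to S4. It was lower in 4 of 4 libraries with overlapping groups (mean log2 ratio −2.17 ± 1.40, SD), from 5 to 52 p21 and 9 to 21 control cells and as few as 2 UMIs. *Matn3* had 0, 11.4, 28.5 and 28.1 CPM against 12.2, 28.4, 46.0 and 28.2 CPM there, and *Matn4* had 258 ± 97.1 against 417 ± 137 CPM (n = 4, lower in 3 of 4). In tenocytes *Matn4* had 146 ± 62.9 against 309 ± 137 CPM (n = 3, lower in 3 of 3). In perichondrium *Matn2* had 64.3 ± 13.1 against 58.2 ± 17.3 CPM (n = 4, lower in 1 of 4). *Matn3* had 11.9 ± 9.60 against 19.9 ± 15.1 CPM there (lower in 4 of 4), from 36 and 58 UMIs. Both means lay between the 6.08 CPM of muscle-like and the 20.95 CPM of immune-like cells. The share of all genes lower in 4 of 4 libraries was not counted outside chondrocytes. In mesenchyme *Matn4* had 232 ± 117 against 230 ± 86.1 CPM (n = 4).

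Over all kept cells none of the members passed. *Matn3* stood at 39.4, 53.0, 52.3 and 72.4 CPM in p21 and 73.0, 162, 79.5 and 211 CPM in control cells. The highest p21 value was just under the lowest control value, and the share of all genes without overlap was not counted over all cells. The log2 fold change was −1.14 (SE 0.19, edgeR adjusted p = 0.134), with 4 of 14883 genes, 0.0269%, called lower and 0.0336% in either direction. The log2 fold changes were −0.44 (adjusted p = 0.463) for *Matn4*, −0.41 (0.738) for *Matn1* and 0.12 (0.942) for *Matn2*. Chondrocytes were 53 of 234 p21 and 74 of 233 control cells in S1, 41 of 101 and 163 of 259 in S2, 175 of 651 and 69 of 274 in S3, and 295 of 768 and 93 of 209 among S4 cells. The share was lower in p21 cells of S1, S2 and S4, and its part in these values was not tested. Unnamed clusters with chondrocyte markers lay outside this class. Those mostly of 1 library held 81, 36, 17 and 12 p21 cells and 1, 0, 0 and 0 control cells. The shares therefore hold for the named class alone.

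**Figure D4:**
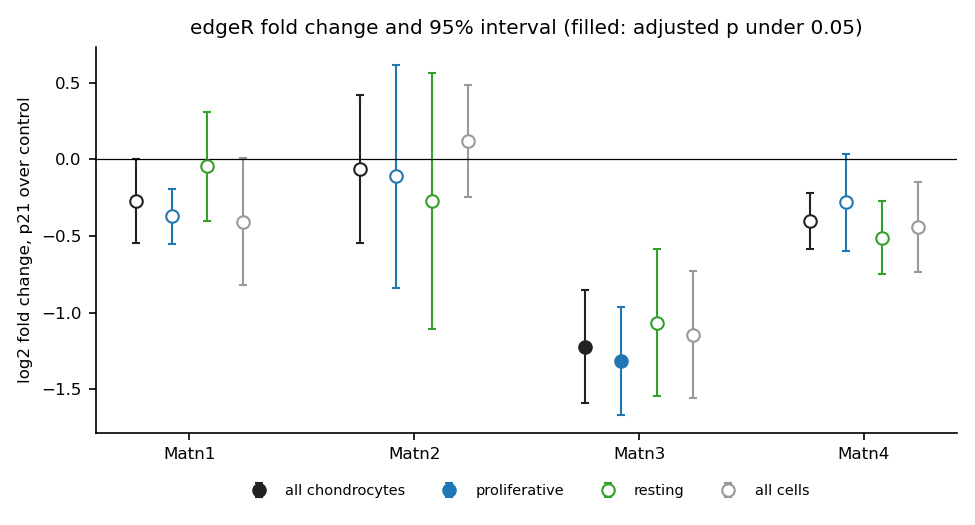
Log2 fold change of p21 over control (y axis) for each matrilin in 4 sets of cells, with the 95% interval of the edgeR fit and filled symbols where the adjusted p was under 0.05. *Matn3* lies between −1.32 and −1.07 in every set and is filled for all and for proliferative chondrocytes.

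No member passed between the sorted fractions, except *Matn3* under 1 of 11 alternatives, the fit with no filter on low counts (adjusted p = 0.0450). In tdT+ against tdT- chondrocytes the log2 fold changes were −0.29 for *Matn1* (edgeR adjusted p = 0.990), 0.04 for *Matn2* (1.00), −0.40 for *Matn3* (0.986) and 0.04 for *Matn4* (1.00), with 2 genes called in all (0.0167%). The interaction of condition and fraction called 0 of 12453 genes (0%) with edgeR, with 470 at an unadjusted p under 0.05 and 62 called with no filter on low counts. Its estimate for *Matn3* was 0.51 (95% interval −0.18 to 1.20), with library ratios of −0.82 and −1.10 in tdT+ and −1.31 and −1.57 in tdT- cells.

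Within p21 chondrocytes of the tdT- libraries, cells with and without a WPRE UMI were set side by side. In S4 *Matn3* stood at 142 CPM in 254 cells with WPRE and at 78.2 CPM in 41 cells without it, which had a median of 7201 UMIs against 25144. In S2 the values were 97.3 CPM in 32 cells and 132 CPM in 9 cells. The libraries ran in opposite directions, and a missing WPRE UMI in a shallow cell does not show that the transgene was silent. Control chondrocytes, which lacked *Col2a1-rtTA*, had a WPRE UMI in 59.5% of S2 and 72.0% of S4 cells. A WPRE UMI therefore does not show that the transgene was active.

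Genes around the matrilins were given from lists of matrix partners, regulators, and proteases and receptors. Of the 16 matrix partners, all tested, 0 passed in all chondrocytes (median log2 fold change −0.02, all genes 0.00), with 2 at an unadjusted p under 0.05 from edgeR. The first 4 of the list, the collagen genes *Col2a1*, *Col9a1*, *Col9a2* and *Col9a3*, had log2 fold changes of −0.10 to −0.25 in proliferative and −0.05 to 0.17 in resting chondrocytes, none past the threshold. *Comp*, a pentameric matrix protein that binds matrilins, had −1.08 (SE 0.26, edgeR adjusted p = 0.112) in proliferative chondrocytes and −0.74 (SE 0.18, adjusted p = 0.157) in resting chondrocytes. *Hapln1* had −0.53 (adjusted p = 0.135) and −0.33 (adjusted p = 0.461). In proliferative chondrocytes the list had a median of −0.16, with 7 of 16 at an unadjusted p under 0.05 and 0 past the threshold. These 7 went both ways, with *Fmod* at 0.81 (edgeR adjusted p = 0.336) and *Col6a3* at 0.88 (adjusted p = 0.316), and *Comp*, *Fn1* (−0.71), *Hapln1*, *Col11a1* (−0.38) and *Col9a1* (−0.25) below 0. In resting chondrocytes the collagens of the list spanned −0.35 (*Col6a3*) to 0.17 (*Col2a1* and *Col6a1*). Genes beyond the first 4 were singled out after their values were seen.

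Of the 4 regulators, *Sox9*, *Sox5* and *Sox6*, which together drive cartilage matrix genes, were tested, and *Nkx3-2* was below the filter. None passed in any set. In resting chondrocytes their log2 fold changes were −0.30, −0.46 and −0.46 (edgeR adjusted p = 0.525, 0.153 and 0.254), and in proliferative chondrocytes the list's median was −0.06. Of the 5 proteases and receptors, *Adamts1*, which encodes a matrix protease, *Itga1* and *Itgb1* were tested in chondrocytes and 0 passed, with *Adamts1* at −0.81 (SE 0.21, edgeR adjusted p = 0.1497).

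**Figure D5:**
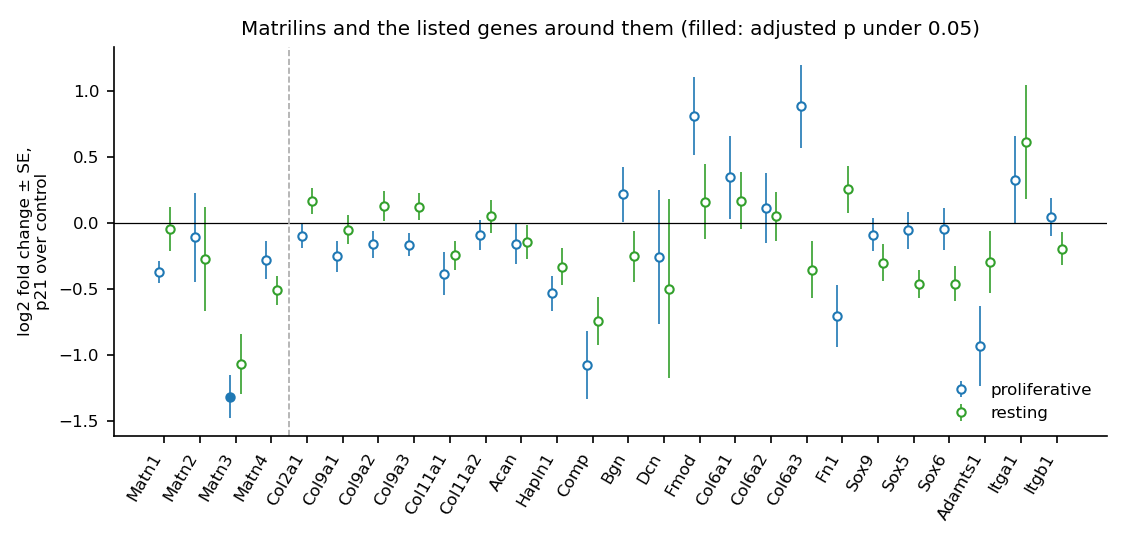
Log2 fold change of p21 over control with its SE (y axis) for the matrilins, left of the dashed line, and the genes of the 3 lists, in proliferative and resting chondrocytes; filled symbols had an adjusted p under 0.05. *Matn3* in proliferative chondrocytes, at −1.32, is the 1 filled symbol.

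Other measures moved with the condition in chondrocytes. Replication-dependent histone genes, which cells transcribe in S phase, summed to 752 to 1189 CPM in p21 and 1688 to 2827 CPM in control chondrocytes, without overlap, and 10 of the 47 tested were called lower. Resting chondrocyte markers (7 of 7 with counts) summed to 446 to 578 against 486 to 657 CPM and G2M phase genes (52 of 52) to 3781 to 4866 against 4385 to 5120 CPM, each lower in 4 of 4 libraries with overlapping groups. Endothelial markers (6 of 6) summed to 78.8 to 181 against 43.1 to 139 CPM, higher in 4 of 4 libraries. In chondrocytes outside the prehypertrophic or hypertrophic cluster, *Pecam1* made up 84.8 of the summed 87.6 CPM. *Pecam1* had a UMI in 35.3% of those cells and in 27.6% of kept cells that were not chondrocytes. Muscle markers (5 of 6, *Myf5* at 0) lay at 0 to 8.15 CPM and epidermal markers (5 of 6, *Krt14* at 0) at 7.15 to 13.2 CPM. Their part in the *Matn3* values was not tested. With scaling factors computed without the histone genes, the *Matn3* log2 fold change was −1.22 (edgeR adjusted p = 0.0149), and without the resting-like cluster with mitotic genes it was −1.20 (adjusted p = 0.0103).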

How the data were processed

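Per the labels, cells were dissociated with Accumax (25 min) and Collagenase B (about 90 min), and libraries were made with 10x Chromium chemistry. The authors deposited whole-number UMI counts per gene and barcode, not normalized, made with Cell Ranger 7.2.0 on GRCm38 (mm10) with transgene sequences added, as the submitters' processing notes give them. Whether introns were counted is not given in the sources used here.

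Barcodes with at least 1000 UMIs, at least 500 genes and at most 10% mitochondrial counts were kept. Barcodes with genes of both sexes (277) and the top 5% of Scrublet scores were left out as doublets, since Scrublet's own threshold called 7. Cells needed at least 2 UMIs of sex genes, at least 80% of 1 sex. Counts were clustered with scanpy 1.11.5 (2000 variable genes, 30 components, Leiden resolution 1), without matrilins, matrix partners and 542 genes correlated with cell cycle scores (r of 0.2 or more). Clusters were named from marker lists, needing at least 3 detected markers. A first clustering mixed immune cells into a chondrocyte-like cluster and was replaced after its clusters and matrilin levels were seen, before any test of p21 cells. The first clustering is among the alternatives.

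UMIs were summed per library and condition and tested with edgeR 4.0.16 (quasi-likelihood, TMM, filterByExpr, fraction as covariate, Benjamini-Hochberg over all genes tested, threshold 0.05), after a test of the steps on simulated data. SEs are the log2 fold change over the square root of F. Single values were tested by two-sided exact permutation of log2(CPM + 1). Alternatives were DESeq2 1.42.0, limma 3.58.1 (voom), library totals, no filter, other models, left-out pseudobulks, other cell filters and other cluster resolutions. The members and lists were chosen with earlier results of these data known. The equal weights over clusters (at least 3 cells per condition), the minimum of 5 cells per condition elsewhere, the extra chondrocyte classes and the motif letters were chosen after seeing the data. Named genes were the members, the label checks, list members and, for each matrilin, the 3 genes most alike over clusters with at least 50 CPM in 1 cluster.

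p21 and control cells of a library shared 1 reaction, so the libraries pair the pseudobulks by design. The deviations of paired pseudobulks from their condition means correlated at −0.02, −0.03, −0.04 and 0.14 in all chondrocytes of S1 to S4. With fraction means also taken out, the correlations were −0.32, −0.28, −0.23 and −0.03 in S1 to S4. With the library as replicate block the number of genes called in proliferative chondrocytes went from 30 to 15 and over all cells from 5 to 2, and no member changed its side of the threshold.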

Additional observations from a re-analysis of the deposited data

Results flagged for a closer look

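Of 68 groups of 4 values checked, 5 held a value far from the other 3, by a criterion that chance meets in about 1 group in 20. *Matn2* stood at 30.79 CPM in control proliferative chondrocytes of S1, against 11.5 to 14.7 CPM in the other control libraries. *Matn4* stood at 2127 CPM in control resting chondrocytes of S4, against 1575 to 1666 CPM. In the mesenchyme cluster led by *Dcn*, S2 had 225.4 CPM of *Matn1* and 216.2 CPM of *Matn4*, against 22.9 to 48.2 and 45.5 to 60.5 CPM in the other libraries. *Matn3* stood at 106.3 CPM in resting chondrocytes of S2, against 62.1 to 68.4 CPM.

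In 2 cases the libraries of one kind moved one way and those of the other kind the opposite way. The *Matn2* log2 ratio of p21 over control in all chondrocytes was −0.64 and −0.24 in the first collection and 0.21 and 0.24 in the second, a difference of means of −0.6663. The *Matn1* ratio in resting chondrocytes was 0.10 and 0.59 in tdT+ and −0.28 and −0.55 in tdT- cells, a difference of 0.758. Neither difference was tested.

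Barcodes that entered no comparison also held matrilin UMIs. The 11934 barcodes under 1000 UMIs had 560.9 CPM of *Matn1*, 13.53 CPM of *Matn2*, 76.1 CPM of *Matn3* and 366.6 CPM of *Matn4*, where 3 UMIs would give 0.372 CPM. The 3729 barcodes that passed the filters on depth but had no condition had 730.9, 14.04, 95.2 and 643.7 CPM, where 3 UMIs would give 0.322 CPM.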

How the results depend on the processing

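*Matn3* stayed lower in p21 cells under all settings run. In all chondrocytes it passed in 22 of 25 alternatives (log2 fold change −1.33 to −1.01), in proliferative chondrocytes in 14 of 15 (−1.43 to −1.16), in resting chondrocytes in 3 of 15 (−1.31 to −0.87) and over all cells in 3 of 15 (−1.34 to −0.99). *Matn4* passed in 6 of 25 in all chondrocytes. With the library as replicate block *Matn3* gave −1.24 (edgeR adjusted p = 0.00487) in all and −1.33 (0.0170) in proliferative chondrocytes. The cause of the other shifts was not tested.

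The number of genes called moved more. In all chondrocytes (41) it was 116 with DESeq2, 456 with no filter on low counts, 86 with limma-voom, 11 with the fractions of a collection summed, 66 and 18 at Leiden resolutions 0.5 and 1.5, and 3 to 39 with 1 pseudobulk left out. In proliferative chondrocytes (30) it was 115 with DESeq2, 383 with no filter, 15 with the library block, 68 with limma-voom and 0 to 63 with 1 left out. In resting chondrocytes (11) it was 29 with DESeq2, 149 with no filter, 7 without the fraction and 5 to 24 with 1 left out. Over all cells (5) it was 48 with DESeq2, 451 with no filter, 2 with the library block, 0 without the fraction, 0 with the fractions summed and 0 to 6 with 1 left out. For tdT+ against tdT- cells (2) it was 14 with the embryos of a condition and collection as block, 7 with DESeq2, 244 with no filter and 1 to 5 with 1 left out. The interaction gave 62 with no filter.

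The log2 ratio of chondrocytes over other cells was 4.22 for *Matn1* and 3.27 for *Matn4* as a mean over single cells. With at least 3000 UMIs it was 3.47 for *Matn3* and 2.13 for *Matn4*. At Leiden resolution 0.5 it was 3.33 for *Matn3* and 1.95 for *Matn4*, and at 1.5 it was 2.71 for *Matn1* and 1.45 for *Matn4*. With the other cells taken without the unnamed clusters that had chondrocyte markers, a choice made after seeing the data, it was 3.97 for *Matn1*, 3.78 for *Matn3* and 2.08 for *Matn4*.

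Each condition rests on the embryos of 2 collections, 1 p21 embryo in the second by the list in the methods, and *Matn2* on as few as 2 UMIs in a resting pseudobulk.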
